A study of Mus musculus with 16 samples.

Results

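Transcripts of the carnitine shuttle, the route by which long-chain fatty acids enter mitochondria, were compared in 16 mouse hearts. The genes were Cpt1a, Slc25a20, Cpt2, Crat and Slc22a5. They were chosen by name as known parts of this route, and a probe set was used where its only gene symbol was one of these. All 5 genes were found, which is 5 of the 22180 genes on the array, through 6 of its 34351 probe sets. Crat had 2 probe sets, which were averaged, and each other gene had 1.

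A long-chain fatty acid that has been joined to coenzyme A cannot cross the inner mitochondrial membrane. Carnitine palmitoyltransferase 1, on the outer membrane, moves the acyl chain onto carnitine, and this step is blocked by malonyl-CoA and is commonly rate-setting for oxidation. The carrier encoded by Slc25a20 passes the acylcarnitine inward in exchange for free carnitine, and the enzyme encoded by Cpt2 hands the chain back to coenzyme A in the matrix, where beta-oxidation begins. Slc22a5 encodes OCTN2, the transporter that brings carnitine into the cell, and Crat encodes carnitine acetyltransferase, which handles acetyl and other short chains. Cpt1a encodes the liver form of the outer enzyme, which the heart makes beside a more abundant muscle form, Cpt1b, and the heart draws most of its energy from fatty acids.

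The hearts came from 4 groups of 4 C57Bl/6J mice. The mice were wild type (WT) or carried Clock delta 19 on both chromosomes (their hearts are called Clock hearts here), and each genotype was split between standard chow and high-fat food (HFD), eaten for 24 weeks. The labels call the mutants transgenic and name no promoter or cell type, so they do not say in which tissues the allele acts. Mice were 32 weeks old, and the myocardium was collected 7 hours after lights on, so each animal gives 1 time of day. Trizol RNA was labelled with biotin and read on 1 Affymetrix array per heart. The design asks how the mutation and the diet, alone and together, alter cardiac transcripts.

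Each value is a log2 distance from the middle of the 16 arrays for that probe set, its median. A value of 0 is therefore the middle heart for that gene, levels of different genes cannot be compared, and neither the presence of a transcript nor the tissue's defining markers can be checked. Base 2 and a positive sign for higher expression were assumed, since neither is given in the sources used here. Array medians lay between -0.0015 and 0.0028 and array SDs between 0.11 and 0.16. Group values below are means with their SD over 4 hearts. Differences carry the standard error of a limma fit across all genes, and p-values were adjusted over all 22180 genes by the Benjamini-Hochberg method with a threshold of 0.05. The labels call the hearts biological replicates, and the p-values measure the spread between these hearts only.

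The diet calls were for Cpt2 and Slc25a20, the genes of the inner-membrane steps. Averaged over both genotypes, Cpt2 and Slc25a20 rose on HFD by 0.28 ± 0.03 and 0.30 ± 0.05 on the log2 scale, or 1.22-fold and 1.23-fold (limma, adjusted p = 0.000935 and 0.00681). So 2 of the 5 genes rose, where 0.812% of all genes did. Cpt1a (0.20 ± 0.08), Slc22a5 (0.18 ± 0.06) and Crat (0.07 ± 0.03) had positive differences that did not pass the test. Their limma p-values were 0.0182, 0.0120 and 0.0437 before adjustment and 0.243, 0.196 and 0.355 after it. A diet effect on the inner-membrane steps in particular was not shown, as the tests between genes below did not part Cpt2 and Slc25a20 from Cpt1a and Slc22a5.

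**Figure D1:**
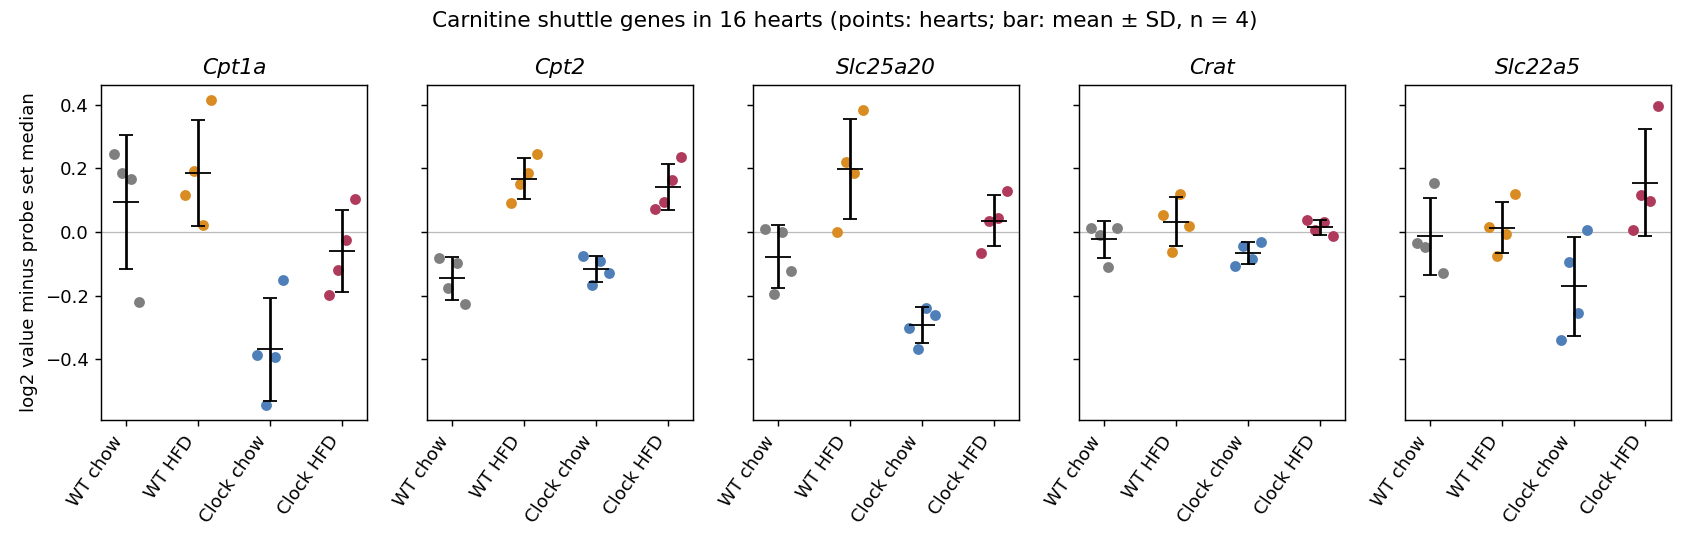
Log2 value, relative to the median of 16 arrays, of each of the 5 genes (panels) in every heart, by group. Points are hearts and bars are the mean ± SD of 4; for Cpt2 the lowest HFD heart (0.07) is above the highest chow heart (-0.07).

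Cpt2, the matrix-side transferase, read -0.08, -0.18, -0.10 and -0.23 in the 4 WT hearts on chow, and 0.09, 0.15, 0.18 and 0.24 in those on HFD. In Clock hearts it read -0.07, -0.17, -0.09 and -0.13 on chow and 0.07, 0.09, 0.16 and 0.23 on HFD. Every HFD heart was therefore above every chow heart, in both genotypes, which held for 39 genes or 0.176% of all tested. An exact permutation test of the averaged difference, with hearts reassigned between diets within genotype, gave the smallest p it allows, 0.000408 (two-sided, 8 against 8 hearts). In WT hearts Cpt2 rose by 0.31 ± 0.05 (95% interval 0.21 to 0.42, adjusted p = 0.0153) and was the only 1 of the 5 to rise, against 0.185% of all genes. In Clock hearts the difference was 0.26 ± 0.05 (95% interval 0.15 to 0.36, adjusted p = 0.0619), and 0 of 5 genes passed by limma, with 0.0496% of all genes risen. In Clock hearts 4 of the 5 had an unadjusted p under 0.05 with HFD higher, all except Crat, against 4.63% of all genes. Without WT chow hearts 2 and 4, chosen after seeing the data, the WT difference was 0.26 (adjusted p = 0.130), and from the 8 WT arrays alone it was 0.31 (adjusted p = 0.0762).

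Slc25a20, the carnitine-acylcarnitine carrier, read 0.0082, -0.20, 0.00036 and -0.12 in WT hearts on chow and -0.00036, 0.22, 0.18 and 0.38 on HFD. In Clock hearts it read -0.30, -0.37, -0.24 and -0.26 on chow and -0.064, 0.035, 0.045 and 0.13 on HFD. The diets were apart in Clock hearts but met in WT hearts, where HFD heart 1 lay level with chow hearts 1 and 3. Of the 8 HFD hearts, 6 were above all 8 chow hearts. Neither genotype alone passed: the diet difference was 0.28 ± 0.07 in WT hearts (adjusted p = 0.113) and 0.33 ± 0.07 in Clock hearts (adjusted p = 0.10). The averaged difference had an exact permutation p of 0.00122 (two-sided).

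The diet differences of Cpt2 and Slc25a20 were -0.02 apart (exact permutation p = 0.636, two-sided), which does not show that they are equal. Both were larger than that of Crat, by 0.22 for Cpt2 and 0.23 for Slc25a20. Over the 20 differences between genes that were tested, 10 for diet and 10 for genotype, these had adjusted exact permutation p-values of 0.00544 and 0.0163. For Crat they use the mean of 2 probe sets, whose own averaged diet differences were 0.13 and 0.0072. The gaps were not tested against either probe set alone. The diet differences of Cpt2 and Slc25a20 were not told apart from those of Cpt1a and Slc22a5, with adjusted exact permutation p-values between 0.197 and 0.375. These tests between genes were added after the values were seen.

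In Clock hearts 4 of the 5 genes had no overlap between HFD and chow hearts, all with HFD higher, against 2.89% of all genes. These were Cpt2, Slc25a20, Crat and Slc22a5. For Crat this holds only for the mean of its 2 probe sets, since in each probe set alone the Clock hearts of the diets overlapped. In WT hearts only Cpt2 of the 5 had none, against 2.80% of all genes. All 5 genes had positive diet differences in both genotypes, with a median of 0.31 in Clock hearts and 0.09 in WT hearts, beside medians of 0.000021 and -0.0022 over all genes. The genes were not shown to respond differently by genotype, as given with the interaction below.

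The start-site regions of the pair that rose with diet are shown because both genes moved together, and that of Cpt1a for contrast with them. They are 300-base windows from RefSeq (GRCm38.p6), from 250 bases before to 50 after the annotated start, at chr4:107923540-107923839 on the minus strand, chr9:108661886-108662185 on the plus strand and chr19:3323051-3323350 on the plus strand. Capitals mark CCGGAAG, the core that ETS factors bind, or AGGTCA, the half-site of nuclear receptors such as the PPARs, on either strand.
Cpt2: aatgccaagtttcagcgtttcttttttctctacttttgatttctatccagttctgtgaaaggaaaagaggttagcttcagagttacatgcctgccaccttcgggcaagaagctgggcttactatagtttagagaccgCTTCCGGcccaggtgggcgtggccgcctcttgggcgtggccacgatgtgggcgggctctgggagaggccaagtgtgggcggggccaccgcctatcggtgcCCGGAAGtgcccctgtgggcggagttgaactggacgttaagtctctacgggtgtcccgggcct
Slc25a20: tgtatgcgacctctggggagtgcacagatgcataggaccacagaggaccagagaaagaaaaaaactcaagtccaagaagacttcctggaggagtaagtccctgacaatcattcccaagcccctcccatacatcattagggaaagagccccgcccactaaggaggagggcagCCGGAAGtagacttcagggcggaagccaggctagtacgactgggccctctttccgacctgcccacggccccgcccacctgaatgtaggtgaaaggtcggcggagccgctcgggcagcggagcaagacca
Cpt1a: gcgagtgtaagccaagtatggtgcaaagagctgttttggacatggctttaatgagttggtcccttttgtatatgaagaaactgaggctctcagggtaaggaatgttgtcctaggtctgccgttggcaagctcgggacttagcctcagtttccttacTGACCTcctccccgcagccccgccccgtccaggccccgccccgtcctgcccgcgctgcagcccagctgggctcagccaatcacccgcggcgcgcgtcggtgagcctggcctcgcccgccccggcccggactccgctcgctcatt

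Of the 5 genes, 4 matched a window, Slc22a5 at chr11:53891654-53891953 on the minus strand being the other. CCGGAAG was found in Cpt2 at -113 and -13 and in Slc25a20 at -79, counted from the start site, and in neither other window, while 8.86% of 32851 windows of this length hold it. This motif was chosen after the sequences were read. AGGTCA was found in Cpt1a at -94 alone, and 16.3% of windows hold it. No window of the 4 held 2 copies of AGGTCA 1 base apart, the E-box CACGTG that CLOCK and BMAL1 bind, or the D-box TTANGTAA that DBP binds, which 0.0396%, 7.15% and 2.32% of windows hold. The GC box GGGCGG was found 3 times each in Cpt1a, Cpt2 and Slc25a20 and 5 times in Slc22a5, and 35.7% of windows hold it. All motifs were searched on both strands, and a match is a description of the letters only.

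Averaged over both diets, Cpt1a and Slc25a20 fell in Clock hearts by 0.35 ± 0.08 and 0.19 ± 0.05, or 1.28-fold and 1.14-fold (limma, adjusted p = 0.0136 and 0.0475). These are 2 of the 5 genes, where 1.44% of all genes fell. The Slc25a20 call was lost without 13 of the 16 hearts, each left out in turn, and over all 16 its adjusted p ran from 0.0114 to 0.0945. It was also lost with all probe sets (0.0620), with trend and robust moderation (0.0641) and with a replicate block (0.0511). Where the call was lost, the count was 1 of 5. Cpt2 differed by 0.0023 ± 0.035, with a 95% interval from -0.07 to 0.08.

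Cpt1a, the outer-membrane transferase, read 0.25, 0.18, 0.17 and -0.22 in WT hearts on chow and -0.39, -0.54, -0.39 and -0.15 in Clock hearts on chow. On HFD it read 0.12, 0.19, 0.02 and 0.41 in WT hearts and -0.20, -0.12, -0.02 and 0.10 in Clock hearts. WT chow heart 4 lay among the Clock hearts and apart from the other WT hearts, so the genotypes met on chow, and they also met on HFD. The averaged difference had a 95% interval from -0.52 to -0.19 and an exact permutation p of 0.00286 (two-sided, 8 against 8 hearts within diet). It passed the limma test without any 1 of the 16 hearts, at values from -0.41 to -0.32 and adjusted p-values from 0.00238 to 0.0330.

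On chow alone the Cpt1a difference was -0.46 ± 0.11 (adjusted p = 0.0773) and on HFD -0.25 ± 0.11 (adjusted p = 0.325). Without WT chow heart 4 the chow difference was -0.57 (adjusted p = 0.0161) and without Clock chow heart 4 it was -0.54 (adjusted p = 0.0387), both of which pass. These were the only 2 of the 16 single hearts whose removal gave a pass. Over all 16 the difference ran from -0.57 to -0.41, with adjusted limma p-values from 0.0161 to 0.210. By limma 0 of the 5 genes fell on either diet alone, where 0.252% of all genes fell on chow and 0.771% on HFD. Before adjustment 2 of the 5, Cpt1a and Slc25a20, had a p under 0.05 on each diet with Clock hearts lower, against 4.34% of all genes on chow and 5.87% on HFD. By the exact permutation test of 4 against 4 hearts, whose smallest p is 0.0286, Cpt1a had p = 0.0571 on both diets.

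The Slc25a20 readings given above put all 4 Clock hearts on chow below all 4 WT hearts on chow. It was the only 1 of the 5 with no overlap there, against 2.38% of all genes, and on HFD 0 of 5 had none, against 3.80%. Its difference was -0.21 ± 0.07 on chow (adjusted p = 0.262) and -0.16 ± 0.07 on HFD (adjusted p = 0.329), and the averaged difference had an exact permutation p of 0.00367 (two-sided).

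The genotype differences were unequal among the genes. That of Cpt1a was further below 0 than those of Cpt2, Slc22a5 and Crat, by 0.36, 0.35 and 0.32 (adjusted exact permutation p = 0.00612, 0.00544 and 0.0272 over the 20 tests). Slc25a20 and Cpt2, both of which rose with diet, were 0.19 apart by genotype (adjusted exact permutation p = 0.00544). Cpt1a and Slc25a20 were -0.17 apart (adjusted exact permutation p = 0.0717).

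**Figure D2:**
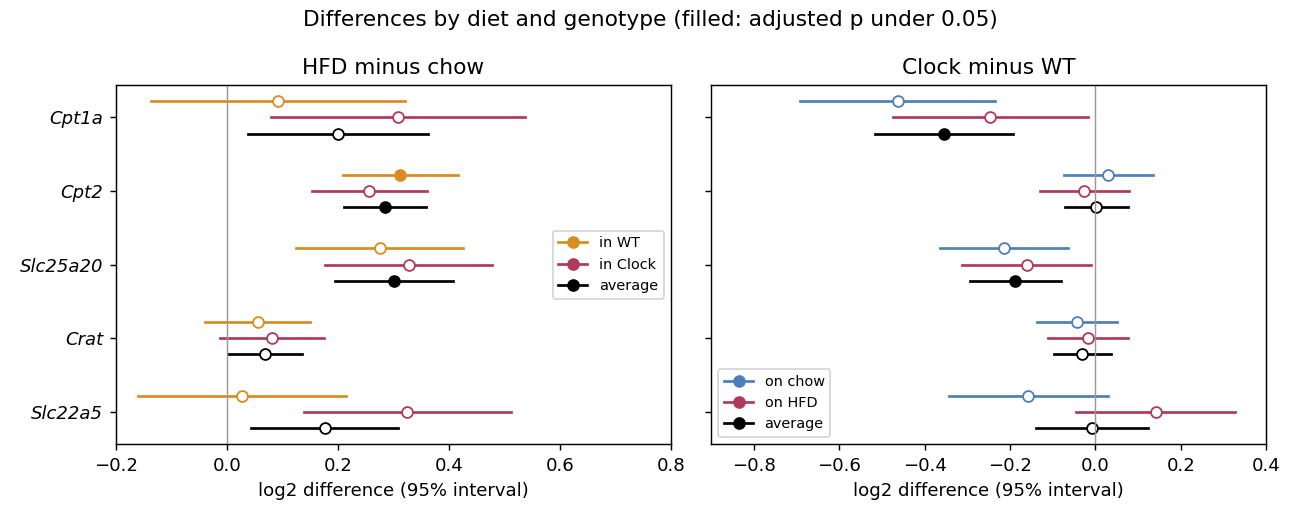
Log2 differences with 95% intervals from the limma fit, for HFD minus chow (left) and Clock minus WT (right), within each genotype or diet and averaged; filled points have an adjusted p under 0.05. Filled averages are Cpt2 and Slc25a20 for diet (0.28 and 0.30) and Cpt1a and Slc25a20 for genotype (-0.35 and -0.19).

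Slc22a5, the carnitine importer, read -0.04, -0.05, 0.15 and -0.13 in WT hearts on chow and 0.02, -0.07, -0.01 and 0.12 on HFD. In Clock hearts it read -0.34, -0.09, -0.26 and 0.0074 on chow and 0.0079, 0.12, 0.10 and 0.40 on HFD. The WT hearts of the 2 diets were mixed, while the Clock hearts of the 2 diets were apart, though Clock chow heart 4 and Clock HFD heart 1 nearly met. The diet difference was 0.33 ± 0.09 in Clock hearts (adjusted p = 0.224) and 0.03 ± 0.09 in WT hearts (adjusted p = 0.963). The difference between these, the interaction, was 0.30 ± 0.12 (95% interval 0.03 to 0.56, unadjusted p = 0.0293, adjusted p = 0.951). Its genotype difference was -0.16 ± 0.09 on chow (adjusted p = 0.621) and 0.14 ± 0.09 on HFD (adjusted p = 0.538), neither of which passed.

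No interaction passed for any gene: limma called 0 of 22180 (0%), with 1122 genes or 5.06% at an unadjusted p under 0.05, and 1 of the 5 genes, Slc22a5, was among the latter. The interaction of Cpt1a was 0.22 ± 0.15 (95% interval -0.11 to 0.54), from a diet difference of 0.31 ± 0.11 in Clock hearts and 0.09 ± 0.11 in WT hearts. That of Cpt2 was -0.06 ± 0.07 (95% interval -0.20 to 0.09) and that of Slc25a20 was 0.05 ± 0.10 (95% interval -0.16 to 0.27). That of Crat was 0.03 ± 0.06, with a 95% interval from -0.11 to 0.16. These intervals leave room for interactions as large as the averaged diet differences in Cpt1a, Slc22a5 and Crat.

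Crat, the short-chain transferase, was the flattest of the 5. Its group means were -0.02 ± 0.06 on WT chow, 0.03 ± 0.08 on WT HFD, -0.07 ± 0.03 on Clock chow and 0.02 ± 0.02 on Clock HFD (SD, n = 4 each). Its averaged diet difference was 0.07 ± 0.03 by limma (adjusted p = 0.355). The exact permutation test gave p = 0.0188 (two-sided, not adjusted), so Crat passed at 0.05 by both tests before adjustment and was not called over all genes. Its averaged genotype difference was -0.03 ± 0.03 (95% interval -0.10 to 0.04). Its values ran from -0.11 to 0.01 over the 8 chow hearts and from -0.06 to 0.12 over the 8 HFD hearts, and 5 HFD hearts were above all 8 chow hearts. The 4 group means spanned 0.10, and 40.9% of all genes spanned less. The spans of Cpt1a (0.56) and Slc25a20 (0.49) exceeded those of 98.9% and 98.4% of genes.

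The 2 probe sets of Crat did not follow each other. Over the 16 hearts their Pearson correlation was -0.38 and Spearman's rho was -0.24, and it was -0.66 once group means were removed. Among 968 genes with 2 probe sets the median Pearson correlation was 0.06, and 7.23% were lower than Crat. One probe set, 17383633, had an averaged diet difference of 0.13 ± 0.03 (adjusted p = 0.0820) and the other, 17369232, had 0.0072 ± 0.062 (adjusted p = 0.984), in a fit on all probe sets. For 17383633 all 4 WT hearts on HFD (0.03 to 0.11) were above all 4 on chow (-0.19 to -0.03), which 2.63% of all probe sets showed. In Clock hearts the same probe set overlapped, with HFD at -0.0098 to 0.12 and chow at -0.13 to 0.02. For 17369232 the diets overlapped in both genotypes, at -0.17 to 0.13 on HFD and -0.19 to 0.21 on chow in WT hearts, and -0.15 to 0.08 and -0.23 to 0.07 in Clock hearts. The Crat mean is thus an average of readings that went apart, and neither probe set passed the test.

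**Figure D3:**
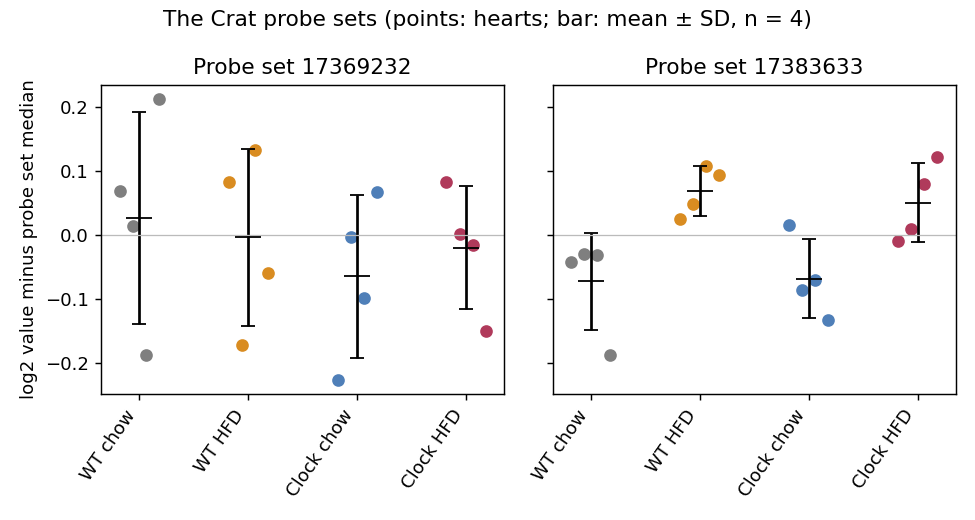
The 2 Crat probe sets (panels) in every heart, as log2 values relative to each probe set's median (vertical), by group; points are hearts and bars are the mean ± SD of 4. For 17383633 the WT HFD hearts (0.03 to 0.11) lie above the WT chow hearts (-0.19 to -0.03), while its Clock groups overlap (-0.0098 to 0.12 and -0.13 to 0.02), as do both pairs of groups for 17369232.

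The order of the group means differed by gene. For Cpt1a it ran from Clock chow (-0.37 ± 0.16) through Clock HFD (-0.06 ± 0.13) and WT chow (0.09 ± 0.21) to WT HFD (0.19 ± 0.17), and only the first step was larger than the SDs beside it. For Cpt2 both chow groups (-0.15 ± 0.07 in WT and -0.11 ± 0.04 in Clock hearts) lay below both HFD groups (0.14 ± 0.07 in Clock and 0.17 ± 0.06 in WT hearts), and the groups of 1 diet were within 1 SD. Slc25a20 had the one order in which every step exceeded the larger SD of its neighbours. It ran from Clock chow (-0.29 ± 0.06) through WT chow (-0.08 ± 0.10) and Clock HFD (0.04 ± 0.08) to WT HFD (0.20 ± 0.16), although the ranges of its last 3 groups met. For Slc22a5 the ends were both Clock groups, chow at -0.17 ± 0.16 and HFD at 0.15 ± 0.17, with WT chow (-0.01 ± 0.12) and WT HFD (0.01 ± 0.08) between them (all SD, n = 4).

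**Figure D4:**
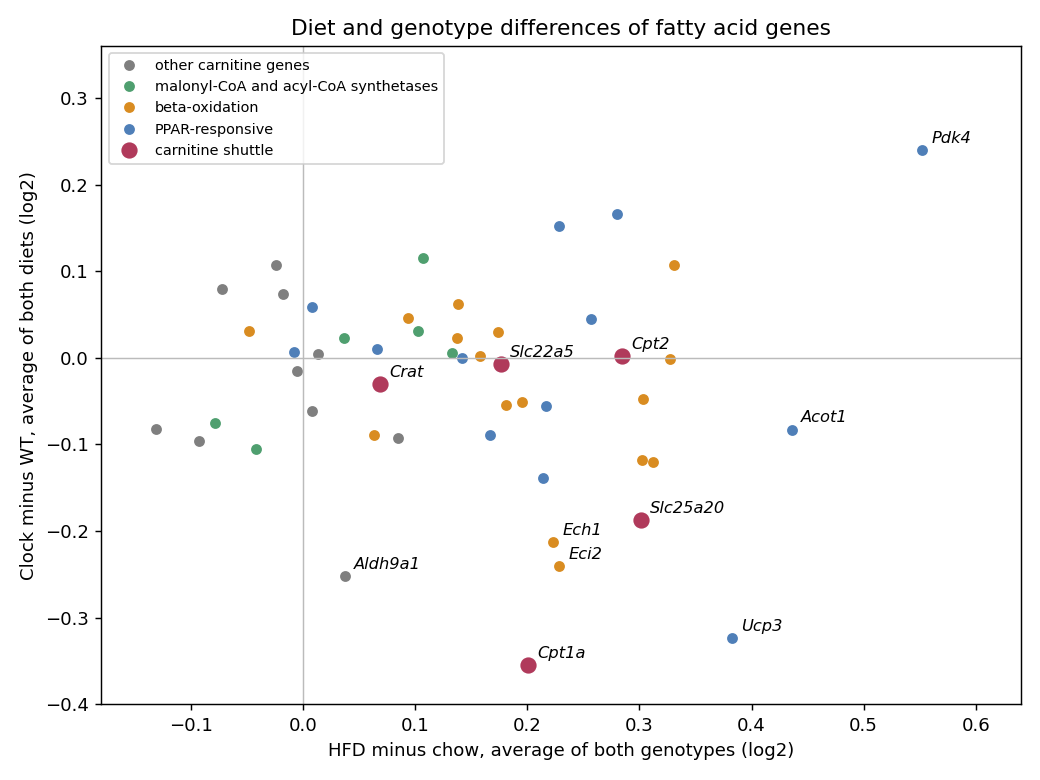
Averaged HFD-minus-chow difference (horizontal, log2) against averaged Clock-minus-WT difference (vertical, log2) for the 5 shuttle genes and genes of the lists described in the text. Cpt2 lies at 0.28 on the diet axis and near 0 on the genotype axis, Cpt1a at 0.20 and -0.35, and Slc25a20 at 0.30 and -0.19.

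The genes differed in how widely hearts of 1 group spread. The within-group SD was 0.17 for Cpt1a, wider than 93.7% of all genes, and 0.06 for Cpt2, wider than 16.1%. It was 0.14 for Slc22a5, 0.11 for Slc25a20 and 0.05 for Crat. The Crat value is that of the mean of its probe sets, which went apart within groups (r = -0.66). Each other gene had 1 probe set, so the Crat spread is not like for like with theirs. Alone, probe set 17369232 had group SDs from 0.10 (Clock HFD) to 0.17 (WT chow). Those of probe set 17383633 ran from 0.04 (WT HFD) to 0.08 (WT chow). The 0.31 rise of Cpt2 in WT hearts and the 0.31 diet difference of Cpt1a in Clock hearts are of 1 size, and had standard errors of 0.05 and 0.11.

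Within groups, some of the genes also varied together from heart to heart. After each group's mean was removed, Cpt2 and Slc25a20 correlated over the 16 hearts with Pearson r = 0.83 and rho = 0.86 (permutation within groups, adjusted p = 0.0122 and 0.0107 over 10 pairs). Without Clock HFD heart 4 and WT chow heart 4, the 2 farthest out for Cpt2, r was 0.85. Only 0.140% of all genes correlated with Cpt2 that highly. For Cpt1a and Cpt2 r was 0.69 and rho 0.73 (adjusted permutation p = 0.0424 and 0.0211), and r was 0.55 without WT chow heart 4 and WT HFD heart 4. For Cpt1a and Slc25a20 r was 0.60 and rho 0.71, of which only rho passed (adjusted permutation p = 0.0805 and 0.0237), and r was 0.54 without the same hearts. Crat had r between -0.36 and -0.12 with the other 4 genes, none of which passed. These values use the mean of its 2 probe sets, which went apart within groups (r = -0.66). Whether either probe set alone varied with the other genes was not tested.

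**Figure D5:**
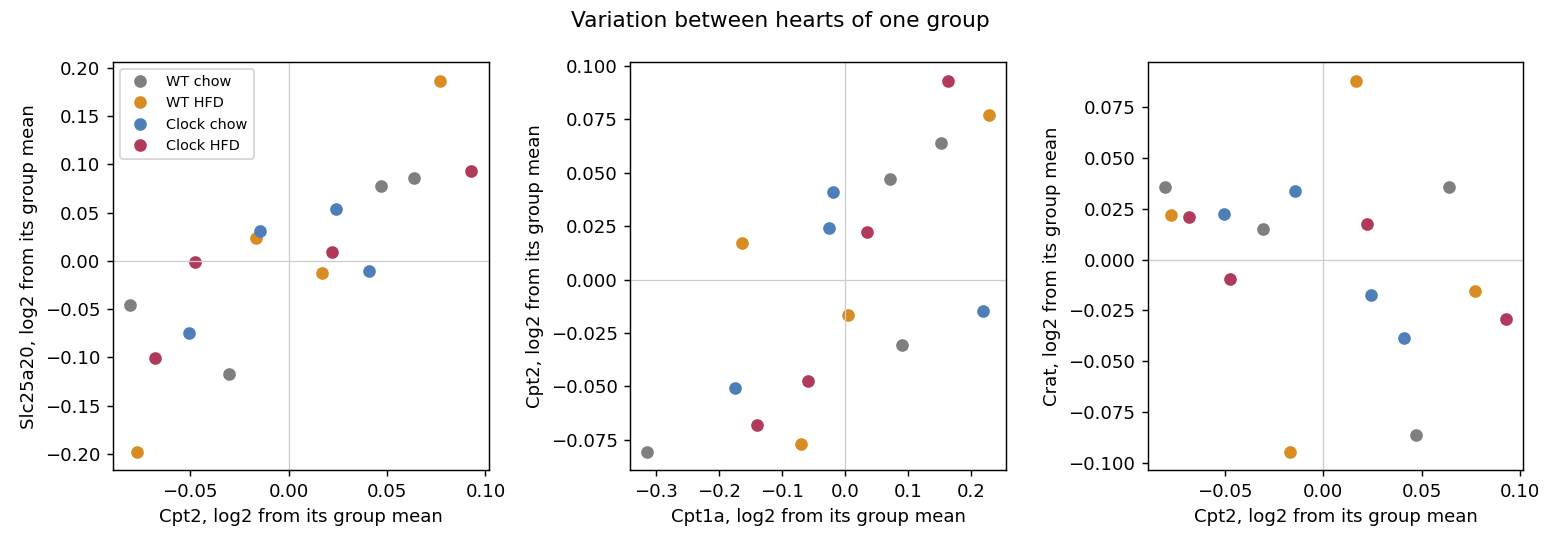
Values of 3 gene pairs in the 16 hearts after removal of each group's mean (log2, both axes), with hearts coloured by group. Cpt2 and Slc25a20 rise together (r = 0.83), as do Cpt1a and Cpt2 (r = 0.69), and Cpt2 and Crat (r = -0.30) do not. Crat is the mean of its 2 probe sets, which went apart, and neither was tested alone.

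The same hearts were often the extremes of their group. The heart numbered 4 was the highest of its group for 4 of the 5 genes in both WT HFD and Clock HFD, Clock HFD heart 1 was the lowest for 4, and WT chow heart 4 was the lowest for 3. Without both HFD hearts numbered 4, a choice made after seeing the data, Cpt2 still rose on HFD by 0.26 (adjusted p = 0.00499) and Slc25a20 by 0.25 (adjusted p = 0.0224) on average, and Cpt1a fell with genotype by 0.34 (adjusted p = 0.0243). The genotype difference of Slc25a20 was then -0.17 and no longer passed (adjusted p = 0.0678).

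The genes of beta-oxidation, which take up the chain that Cpt2 releases changed mostly by diet. On average 11 of 16 rose on HFD and 0 fell, with a median of 0.19 beside -0.0015 over all genes, of which 0.812% rose. The largest rises were in Acads, the short-chain acyl-CoA dehydrogenase (0.33 ± 0.05), Acadvl, the very-long-chain one (0.33 ± 0.04), Decr1, the dienoyl-CoA reductase (0.31 ± 0.05), and Acaa2, the matrix thiolase (0.30 ± 0.03). In WT hearts 5 of 16 rose, led by Acads (0.37 ± 0.07), Acadvl (0.33 ± 0.06), Acaa2 (0.32 ± 0.05) and Hadha (0.31 ± 0.05), which encodes the trifunctional protein's alpha subunit. In Clock hearts 3 of 16 rose, Acadvl (0.32 ± 0.06), Hadha (0.30 ± 0.05) and Acaa2 (0.29 ± 0.05).

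By genotype only 2 of the 16 changed on average, and both fell: the enoyl-CoA isomerase gene Eci2 by 0.24 ± 0.04 and Ech1, its relative for dienoyl-CoA, by 0.21 ± 0.04. Both also fell on chow alone, by 0.29 ± 0.06 and 0.25 ± 0.05, and 0 of 16 passed on HFD, where Ech1 had the smallest p (-0.18 ± 0.05, adjusted p = 0.110). The median genotype difference of the list was -0.02, beside -0.0014 over all genes. In its interaction none passed, and Etfdh, the electron transfer flavoprotein's dehydrogenase, had the smallest p (-0.09 ± 0.06, adjusted p = 0.982).

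Other carnitine genes gave 1 call. Of 11, 10 were measured by a probe set of their own, and Cpt1b, the muscle form, was not among them, since its probe set also lists 2 other genes. The only change was in Aldh9a1, an enzyme of carnitine synthesis, which fell in Clock hearts by 0.25 ± 0.06 on average (adjusted p = 0.0268). It also had the smallest p on chow (-0.30 ± 0.09, adjusted p = 0.165) and on HFD (-0.20 ± 0.09, adjusted p = 0.310). For diet none of the 10 passed, and the smallest p was that of the carnitine transporter relative Slc22a21 on average (-0.13 ± 0.07, adjusted p = 0.422) and in WT hearts (-0.17 ± 0.09), and of the mitochondrial carrier gene Slc25a29 in Clock hearts (-0.13 ± 0.08). For the interaction it was Cpt1c, the brain form (-0.15 ± 0.08, adjusted p = 0.982).

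Genes that make or remove malonyl-CoA, the inhibitor of the outer enzyme, or activate fatty acids gave no call. Of 8, 6 were measured, and Acsl1 and Acsl3 were not analysed here. For diet the smallest p was that of the acyl-CoA synthetase Acsl4 on average (-0.08 ± 0.03, adjusted p = 0.328), of the acetyl-CoA carboxylase Acaca in WT hearts (-0.13 ± 0.08, adjusted p = 0.649), and of Mlycd, which destroys malonyl-CoA, in Clock hearts (0.25 ± 0.09, adjusted p = 0.390). For genotype it was Acsl4 on average (-0.08 ± 0.03) and on HFD (-0.10 ± 0.05), and Acaca on chow (-0.19 ± 0.08). Mlycd also had the smallest interaction p (0.24 ± 0.13, adjusted p = 0.982).

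Among other targets of the PPAR receptors, which sense fatty acids and are known to drive several shuttle genes, 13 of 16 were measured and 4 rose on HFD on average. They were Pdk4, the kinase that restrains pyruvate oxidation (0.55 ± 0.11), Acot1, a cytosolic thioesterase (0.44 ± 0.10), the lipid droplet coat gene Plin2 (0.22 ± 0.04) and the fatty acid importer gene Cd36 (0.14 ± 0.03). The list's median was 0.22, beside -0.0015 over all genes, of which 0.812% rose. Within 1 genotype none passed, and the smallest p was that of Cd36 in WT hearts (0.15 ± 0.04, adjusted p = 0.154) and Pdk4 in Clock hearts (0.76 ± 0.16, adjusted p = 0.0940). By genotype none passed: the smallest p was that of Ucp3, a mitochondrial carrier gene, on average (-0.32 ± 0.10, adjusted p = 0.0887) and on chow (-0.52 ± 0.14, adjusted p = 0.147), and of Pdk4 on HFD (0.45 ± 0.16). Ucp3 also had the smallest interaction p (0.39 ± 0.20, adjusted p = 0.982).

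The genes whose values most resembled each shuttle gene over the 16 hearts were ranked by Pearson r, as a description that includes the group differences. For Cpt2 they were Ephx2, the soluble epoxide hydrolase gene (r = 0.97), Acaa2 (0.96) and Retsat, the retinol saturase gene (0.95). For Slc25a20 they were Lpcat3, a phospholipid remodelling enzyme gene (0.95), Decr1 (0.94) and Ech1 (0.94). For Cpt1a they were the stearoyl-CoA desaturase gene Scd4 (0.88), Ucp3 (0.88) and the cell cycle kinase gene Cdk6 (0.87). The lists for Slc22a5 (Armh1 at 0.90, Rxylt1 at 0.82, Aldoart1 at 0.78) and Crat (Actl6b at 0.82, Haspin at 0.81, Plbd1 at 0.80) held no gene of the pathway lists above. Within groups the r of Cpt2 with Retsat was 0.91 and that of Cpt1a with Cdk6 was 0.83.

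Markers of the cell types that myocardium can hold were read beside these results. The shares of all genes that rose in Clock hearts or fell on HFD on average are not given here, so medians over all genes stand beside the counts. Of 10 endothelial markers 5 rose in Clock hearts on average, among them Cldn5 (0.74 ± 0.12) and Robo4 (0.36 ± 0.07). On HFD 2 fell, Kdr (-0.24 ± 0.05) and Emcn (-0.21 ± 0.05). The list's median was 0.20 by genotype and -0.08 by diet, beside -0.0014 and -0.0015 over all genes. The mean of the 10 ran from -0.09 to 0.05 in WT chow hearts, -0.26 to -0.18 in WT HFD hearts, 0.03 to 0.18 in Clock chow hearts and -0.03 to 0.15 in Clock HFD hearts. Of 10 fibroblast markers 3 rose in Clock hearts, among them Col1a1 (0.30 ± 0.07) and Postn (0.28 ± 0.07). On HFD 1 rose, Postn (0.34 ± 0.07), where 0.812% of all genes did. The median of these 10 markers was 0.13 by genotype and 0.11 by diet. Their mean ran from -0.22 to -0.07 in WT chow hearts, -0.14 to 0.16 in WT HFD hearts, -0.04 to 0.06 in Clock chow hearts and -0.10 to 0.25 in Clock HFD hearts. Their part in the shuttle gene results was not tested.

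Of 10 cardiomyocyte markers 1, Ryr2, rose in Clock hearts (0.17 ± 0.03) and on HFD (0.15 ± 0.03). Their mean ran from -0.12 to 0.03 in WT chow hearts, -0.08 to -0.01 in WT HFD hearts, -0.10 to 0.05 in Clock chow hearts and 0.01 to 0.08 in Clock HFD hearts. Of 9 adipocyte markers measured 1, Lipe, rose on HFD on average (0.22 ± 0.05) and 1, Car3, rose in Clock hearts on chow (0.40 ± 0.08). The 9 did not move as a set. For the averaged diet difference 4 were above 0 and 5 below (median -0.03), and for genotype on chow 5 were above and 4 below. Their mean ran from -0.08 to 0.03 in WT chow hearts and -0.06 to 0.07 in WT HFD hearts. It ran from -0.02 to 0.09 in Clock chow hearts and -0.04 to 0.08 in Clock HFD hearts. No marker of smooth muscle cells and pericytes, macrophages, lymphocytes, red cells or skeletal muscle passed in the averaged comparisons, and of 6 red cell markers 2 were measured. In whole tissue, fewer cells of a type and less RNA per cell cannot be told apart.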

How the data were processed

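The deposited series table holds logarithmic values, taken here as log2. The authors scaled them across arrays and centred them per probe set, as each probe set has a median of 0 (within 1e-06). The logarithm's base, sign, software and genome build were not given in the sources used here. With 4 arrays per group, their number limits the precision.

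Probe sets with 1 gene symbol (23521 of 34351) were averaged per gene, and those with several (1814) or none (9016) were left out. Of the 22180 genes, 1082 had more than 1 probe set. Symbols were checked against RefSeq genes of GRCm38.p6, with 0 changed and 193 probe sets unmatched.

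Genes were fitted with limma 3.58.1 in R 4.3.3, with 1 mean per group over all 16 arrays, two-sided tests, and 12 degrees of freedom from the residuals plus 4.16 from the prior. The 7 comparisons were each genotype and diet difference, their averages and the interaction. Single values were also tested by exact permutation over hearts, and gene pairs with 100000 permutations within groups. The fit was tested on simulated data. Same-numbered hearts had low residual correlations (-0.149 to 0.163, median -0.020, over 0.1 in 3 of 24 pairs), so replicate numbers were not treated as pairs. The highest, 0.163, was between the WT HFD and Clock HFD hearts numbered 4. No values for hearts of unlike number are given beside these.

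The genes and lists were chosen with earlier results of these data known. Genes named beside the 5 follow a rule: of each pathway list up to 4 called genes with the largest change, or the 1 with the smallest p; up to 2 called markers per cell type; and the 3 named genes most correlated with each of the 5, without predicted genes. The rule's other gene, Cpt1b, has no value here because its probe set carries 3 symbols. Clock, as the mutated gene, and Ppara, Pparg and Ppard were also named outside the rule. Other settings tried were a replicate block, trend and robust moderation, array weights, repeated quantile normalization, arrays shifted to a median of 0, only the 8 arrays compared, all probe sets, the median of probe sets and leaving out each heart. The plots used matplotlib 3.10.9 under Python 3.11.15.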

Additional observations from a re-analysis of the deposited data

Results flagged for a closer look

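Crat in WT chow heart 3 lay at -0.11, away from the other 3 hearts of its group, which were between -0.01 and 0.01. Its gap to the nearest heart was 0.831 of the group's range, just past Dixon's 95% critical value for 4 samples. It was 1 of 20 gene-by-group sets tested, and chance gives about 1 in 20. The value is the mean of 2 probe sets that went apart. In WT chow hearts 1 to 4, 17369232 read 0.07, 0.01, -0.19 and 0.21. In the same hearts 17383633 read -0.04, -0.03, -0.03 and -0.19, so the 2 readings of heart 4 nearly cancelled. Neither probe set was tested alone for outlying hearts.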

How the results depend on the processing

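The averaged rises of Cpt2 and Slc25a20 on HFD and the averaged fall of Cpt1a in Clock hearts kept their direction and passed under every setting run, single hearts left out included. The averaged fall of Slc25a20 in Clock hearts kept its direction but missed the threshold at -0.19 with all probe sets (adjusted p = 0.0620), trend and robust moderation (0.0641) and the replicate block (0.0511), and at -0.17 without both HFD hearts numbered 4 (0.0678). The number of called genes was then 1 in place of 2. Leaving out single hearts gave it -0.22 to -0.16 and 1 to 2 called genes. The replicate block changed no other call, and the labels do not say that hearts of equal number are pairs. The rise of Cpt2 in WT hearts was lost from the 8 WT arrays alone (0.31, adjusted p = 0.0762) and without WT chow hearts 2 and 4 (0.26, adjusted p = 0.130), leaving 0 called genes in place of 1; leaving out single hearts kept it (0.29 to 0.34). Cpt2 passed in Clock hearts with array weights (0.25, adjusted p = 0.0412) and repeated quantile normalization (0.27, adjusted p = 0.0271), which gave 1 called gene in place of 0. Cpt1a passed on chow with array weights (-0.50, adjusted p = 0.0399), also 1 in place of 0, and single hearts left out gave 0 to 1. The causes were not tested.

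The differences that changed sign were not called in any setting. The averaged genotype difference of Cpt2 became -0.0027 with array weights, -0.0062 with repeated quantile normalization, -0.00036 without both HFD hearts numbered 4 and -0.025 without WT chow hearts 2 and 4. The last setting also gave Cpt2 -0.025 by genotype on chow, and diet differences in WT hearts of -0.019 for Cpt1a and -0.046 for Slc22a5, which was -0.0078 without both HFD hearts numbered 4. Single Crat probe sets gave 0.0044 by genotype on chow and -0.023 for the interaction (17383633), and -0.030 for diet in WT hearts (17369232). With single hearts left out, the diet difference in WT hearts ran from -0.012 to 0.15 for Cpt1a and -0.011 to 0.083 for Slc22a5. The averaged genotype difference then ran from -0.013 to 0.015 for Cpt2 and -0.048 to 0.021 for Slc22a5. The genotype difference of Crat on HFD ran from -0.049 to 0.012, and the interaction from -0.0054 to 0.055 for Crat and -0.013 to 0.11 for Slc25a20. Settings that leave out chosen hearts were added after seeing the data. A filter by signal level could not be run on centred values.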

Other observations

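Genes of factors known to act on fatty acid oxidation genes were read beside the shuttle. The 15 include the clock genes Clock, Arntl, Nr1d1, Nr1d2 and Dbp. In Clock hearts 4 rose on average, Ppara, Pparg, Arntl and Clock, the mutated gene itself. Another 3 fell, Nr1d1, Nr1d2 and Dbp, where 1.44% of all genes fell. The largest changes were in the clock output factor gene Dbp (-2.39 ± 0.19) and the BMAL1 gene Arntl (1.32 ± 0.18). The REV-ERB genes Nr1d2 (-1.29 ± 0.11) and Nr1d1 (-1.04 ± 0.08) came next. Dbp, Nr1d2 and Nr1d1 also fell on chow alone (-2.05 ± 0.27, -1.13 ± 0.16 and -1.04 ± 0.11). On HFD alone 3 rose and 3 fell, led by Dbp (-2.73 ± 0.27), Arntl (1.92 ± 0.26), Nr1d2 (-1.45 ± 0.16) and Nr1d1 (-1.04 ± 0.11). With diet 1 of 15 changed: Arntl fell on average (-0.84 ± 0.18) and in WT hearts (-1.43 ± 0.26). In Clock hearts none passed, and the fatty acid receptor gene Pparg had the smallest p (0.22 ± 0.07, adjusted p = 0.356). For the interaction it was Arntl (1.20 ± 0.36, adjusted p = 0.793).

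Ppara, which encodes the receptor named above as a driver of shuttle genes, was chosen after its values were seen. It rose in Clock hearts by 0.24 ± 0.05 on average (adjusted p = 0.0160). Within 1 diet it did not pass by limma, at 0.29 ± 0.08 on chow (adjusted p = 0.112) and 0.19 ± 0.08 on HFD (adjusted p = 0.269). Pparg also rose in Clock hearts on average, and Ppard was not called.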
